A study of Mus musculus with 12 samples.

Results

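The signals of 10 imprinted growth genes were followed in mouse spinal cord: Igf2, H19, Dlk1, Meg3, Nnat, Plagl1, Mest, Peg3, Cdkn1c and Grb10. They belong to a group that is highly expressed before birth and declines afterwards. Every probe set whose platform symbol was a member was taken, which gave 20 of the 22690 probe sets on the array. All 10 members had a probe set, and for 9 of them a probe set carried that symbol alone. H19 was present only on probe set 1448194_a_at, which the annotation assigns to both H19 and Mir675, the microRNA gene that lies within H19, so that signal is given for the H19/Mir675 probe set and not for either gene. Igf2, Dlk1, Meg3 and Nnat were chosen on their higher signal in untreated disease-model cords. Their 9 probe sets are therefore described with values and errors and without a test in any comparison, since all comparisons share arrays with that one. The other 6 members, with 11 probe sets, were tested.

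The arrays measured spinal cord RNA of 12 mice aged 13 days, 4 in each of 3 groups. All mice came from line 4299 on the FVB background, a model of spinal muscular atrophy (SMA) that combines the transgenes Tg(SMN2*delta7)4299Ahmb and Tg(SMN2)89Ahmb with the Smn1tm1Msd allele, and all carried both human transgenes. The group called wildtype here had the genotype SMN2+/+;SmnΔ7+/+;mSmn+/−, so it too lacked a copy of mouse Smn, and it received vehicle. Both SMA groups were SMN2+/+;SmnΔ7+/+;mSmn -/-, and received either vehicle or ceftriaxone, a beta-lactam antibiotic, at 200 mg/kg daily by intraperitoneal injection from day 5. The titles call the SMA vehicle mice untreated, while the protocol says that they received vehicle. The labels mention whole cords and also lumbar segments of animals perfused with fixative, and do not settle which was put on the arrays. Smn1 signal separated the genotypes, at 263.4 to 414.3 in wildtype, 3.6 to 5.7 in SMA vehicle and 3.3 to 15.8 in SMA ceftriaxone cords. Wildtype array 2 stood apart: its correlation with the other wildtype arrays was 0.945 to 0.948, against 0.986 to 0.988 among those. Its summed signal of 9 thymus and T cell markers was 32860, against 59.8 to 489.7 on the other 11 arrays. Results that turn on this array are given with and without it. Xist signal was high on 1 wildtype array, 2 SMA vehicle arrays and all 4 SMA ceftriaxone arrays, so it differed between the groups.

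An imprinted gene is expressed from the copy inherited from the mother or from the father only, because DNA methylation laid down at control regions in the germ line tells the copies apart. Paternally expressed members such as Igf2, Dlk1, Mest, Peg3, Plagl1 and Nnat are mostly known to promote growth or to be active in growing tissue, whereas the maternally expressed H19, Cdkn1c and Grb10 restrain it. Plagl1 encodes a zinc finger transcription factor described as a regulator of several other members. In the nervous system many of these genes are known from the embryo and from neural progenitors or young neurons, and Grb10 is unusual in being expressed from the paternal copy in neurons.

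The table of promoters used here, from RefSeq on GRCm38.p6, held 15 transcription starts of 8 members, each with 250 bases before the start and 50 after it. H19 and Cdkn1c had no entry. Igf2, with 4 starts, Mest and Grb10 are not shown, nor is a second start of Meg3 at chr12:109545148-109545447. Shown are the starts of Nnat, Dlk1 and Meg3, which were chosen for their higher signal in SMA vehicle cords, of Plagl1, which rose there, and of Peg3, the member whose promoter held the palindrome GGGGCCCC known as a PLAGL1 motif. Capitals mark matches to that palindrome or to the TATA box core TATAAA, searched on both strands. In Meg3 the capitals cover 2 overlapping matches on opposite strands. The promoters lie at chr2:157559828-157560127 (Nnat, plus strand), chr12:109452573-109452872 (Dlk1, plus strand), chr12:109540746-109541045 (Meg3, plus strand), chr10:13090582-13090881 (Plagl1, plus strand) and chr7:6730370-6730669 (Peg3, minus strand), and are written 5′ to 3′.
Nnat: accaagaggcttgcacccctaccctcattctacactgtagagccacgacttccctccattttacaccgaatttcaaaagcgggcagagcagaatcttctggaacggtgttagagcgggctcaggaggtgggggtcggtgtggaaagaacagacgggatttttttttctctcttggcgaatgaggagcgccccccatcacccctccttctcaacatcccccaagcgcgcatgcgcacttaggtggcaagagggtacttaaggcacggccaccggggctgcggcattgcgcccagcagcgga
Dlk1: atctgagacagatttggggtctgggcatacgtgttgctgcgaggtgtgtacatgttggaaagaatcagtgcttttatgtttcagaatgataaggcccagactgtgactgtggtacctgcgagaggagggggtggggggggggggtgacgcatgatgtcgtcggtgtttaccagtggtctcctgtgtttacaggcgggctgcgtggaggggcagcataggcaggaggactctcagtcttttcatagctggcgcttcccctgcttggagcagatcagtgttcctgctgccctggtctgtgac
Meg3: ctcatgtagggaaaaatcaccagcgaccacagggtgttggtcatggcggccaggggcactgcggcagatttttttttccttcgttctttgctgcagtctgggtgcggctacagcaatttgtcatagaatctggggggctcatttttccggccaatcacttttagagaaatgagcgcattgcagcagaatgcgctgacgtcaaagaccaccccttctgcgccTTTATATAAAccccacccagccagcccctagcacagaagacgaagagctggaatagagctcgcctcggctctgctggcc
Plagl1: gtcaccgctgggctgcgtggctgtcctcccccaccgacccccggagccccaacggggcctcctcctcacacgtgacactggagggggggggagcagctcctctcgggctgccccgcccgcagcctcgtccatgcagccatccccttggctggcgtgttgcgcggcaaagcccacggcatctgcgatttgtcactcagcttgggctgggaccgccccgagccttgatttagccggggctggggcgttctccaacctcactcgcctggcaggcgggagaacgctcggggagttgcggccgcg
Peg3: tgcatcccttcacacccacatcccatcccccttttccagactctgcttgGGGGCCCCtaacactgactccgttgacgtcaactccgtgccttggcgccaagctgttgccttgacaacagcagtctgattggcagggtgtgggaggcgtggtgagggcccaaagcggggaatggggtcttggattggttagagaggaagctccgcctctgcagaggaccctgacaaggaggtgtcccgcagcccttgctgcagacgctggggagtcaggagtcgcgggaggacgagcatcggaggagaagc

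The letters of these promoters were set against 32851 promoters of 27025 genes. The palindrome GGGGCCCC was in 1.08% of them and the TATA core in 13.6%. Among the members' 15 starts, Peg3 held the palindrome and the shown start of Meg3 the TATA core. The YY1 core GCCATNTT was in 0 of them and in 6.05% of all promoters. The CpG content, as observed over expected dinucleotides, was 0.70 for Plagl1, 0.69 for Nnat, 0.60 for Meg3, 0.46 for Peg3 and 0.43 for Dlk1 at the starts shown. Each of these is above the median of 0.38 over all promoters. The second Meg3 start was at 0.06, and the starts of Igf2, Mest and Grb10 lay on both sides of the median, from 0.10 (Igf2) to 0.97 (Grb10). Methylation was not measured.

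H19 RNA is also the host of miR-675, which is cut from its first exon and is known to restrain growth of the placenta. Its mature forms lie on the minus strand at chr7:142577112-142577133 and chr7:142577078-142577099 of GRCm38.p6, and the seeds, bases 2 to 8, are in capitals. The arrays did not measure the mature microRNA.
mmu-miR-675-5p: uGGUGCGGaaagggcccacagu
mmu-miR-675-3p: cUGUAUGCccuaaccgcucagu

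In SMA vehicle cords, 6 of the 10 members stood above wildtype: Nnat, Meg3, Dlk1 and Igf2, which were chosen for it, and the H19/Mir675 probe set and Plagl1, which were not. Among the 11 tested probe sets, 3 were higher than in wildtype, 0 were lower and 8 did not pass an adjusted p of 0.05 (limma, Benjamini-Hochberg adjustment over all 22626 probe sets tested). Over all probe sets, 16.5% were called higher and 14.8% lower in this comparison, so 3 of 11 is read against a background in which a large part of the array moved. The median log2 difference of the 11 was 0.27, against -0.018 over all probe sets. Mest, Peg3, Cdkn1c and Grb10 did not pass. These counts and the median turn on wildtype array 2. Without it, the middle of the 11 differences was 0.10, that of Peg3 1417356_at. The H19/Mir675 probe set (2.89) and Plagl1 1426208_x_at (1.18) were still called higher, and Plagl1 1450533_a_at (0.96) was not. Peg3 1433924_at (-0.21) and Cdkn1c (-0.41) passed as lower. All 9 probe sets of the chosen genes had SMA vehicle arrays above all wildtype arrays, which 16.4% of all probe sets did; nothing is read from that count, because it follows from the choice. In bulk tissue, fewer cells of a type and less RNA per cell cannot be told apart.

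**Figure D1:**
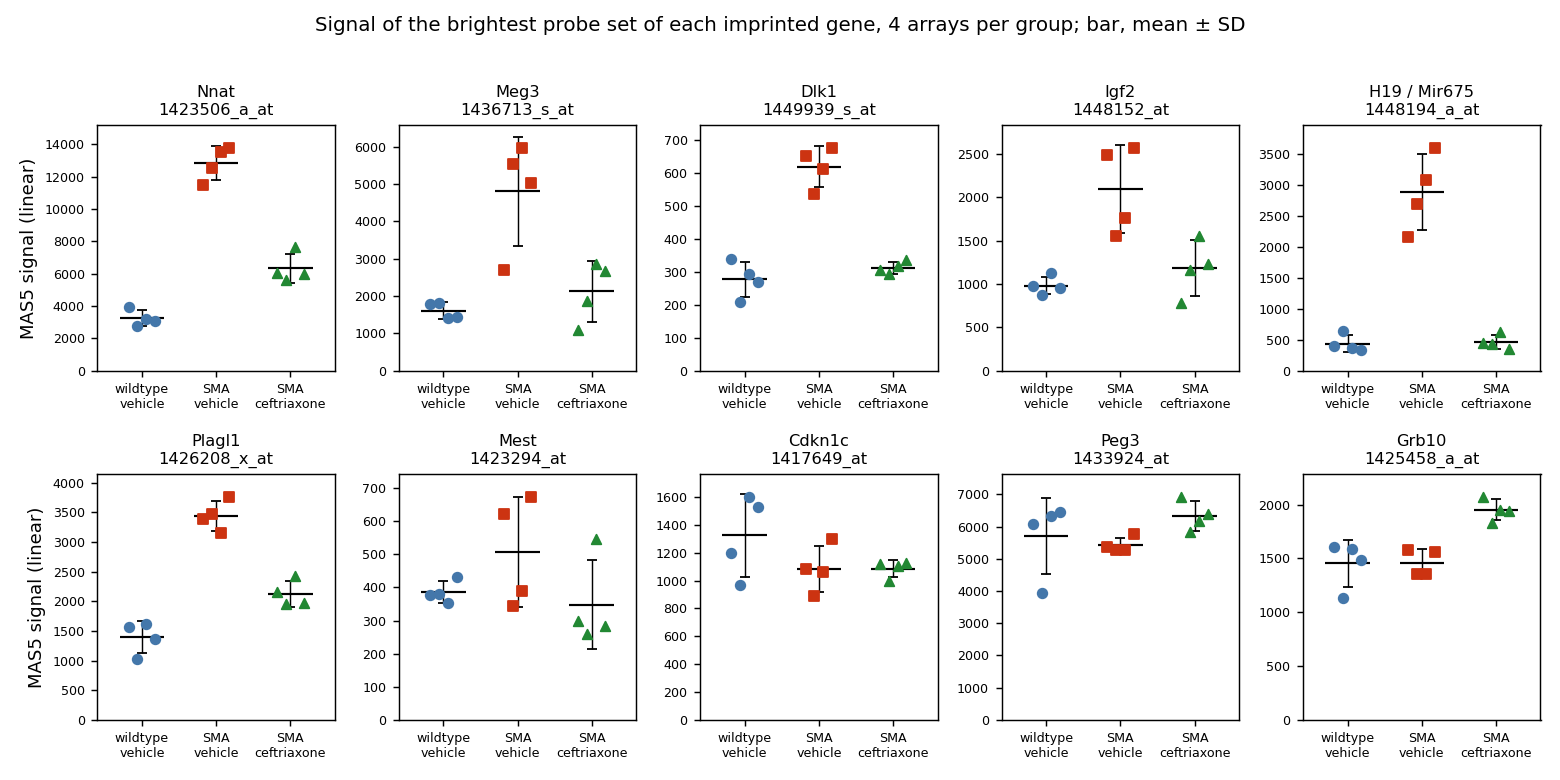
MAS5 signal on a linear axis for the brightest probe set of each of the 10 genes, by group. Points are the 4 arrays of a group, and the bar with its whiskers is the mean ± SD. In the plots of Nnat, Meg3, Dlk1, Igf2, H19/Mir675 and Plagl1 the SMA vehicle arrays lie above all wildtype arrays, and in those of Mest, Cdkn1c, Peg3 and Grb10 these groups overlap.

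With ceftriaxone, the H19/Mir675 probe set and Plagl1 fell from their level in SMA vehicle cords, and a probe set of Grb10 rose. Of the 11 tested probe sets, 2 were lower, 1 was higher and 8 did not pass, with 10.8% of all probe sets called lower and 11.5% higher in that comparison. For the chosen genes, 6 of 9 probe sets had all ceftriaxone arrays below all SMA vehicle arrays, beside 16.2% of all probe sets, and 3 overlapped. The medians were 0.01 for the tested and -1.03 for the chosen probe sets, against 0.022 over all. The count and median of the chosen probe sets follow in part from the choice, which used the same SMA vehicle arrays.

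Between ceftriaxone-treated SMA cords and wildtype, Plagl1 1426208_x_at was the 1 of 11 tested probe sets that passed, as higher, and 0 were lower. Over all probe sets, 1.55% were called higher and 0.464% lower. Of the 9 chosen probe sets, Nnat and Meg3 1439380_x_at had all ceftriaxone arrays above all wildtype arrays, which held for 5.96% of all probe sets, and the other 7 overlapped. The median difference was 0.29 for the 11 tested and 0.53 for the 9 chosen probe sets, against 0.012 over all probe sets. Nothing is read from the count or median of the chosen probe sets, because the choice used the same wildtype arrays.

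**Figure D2:**
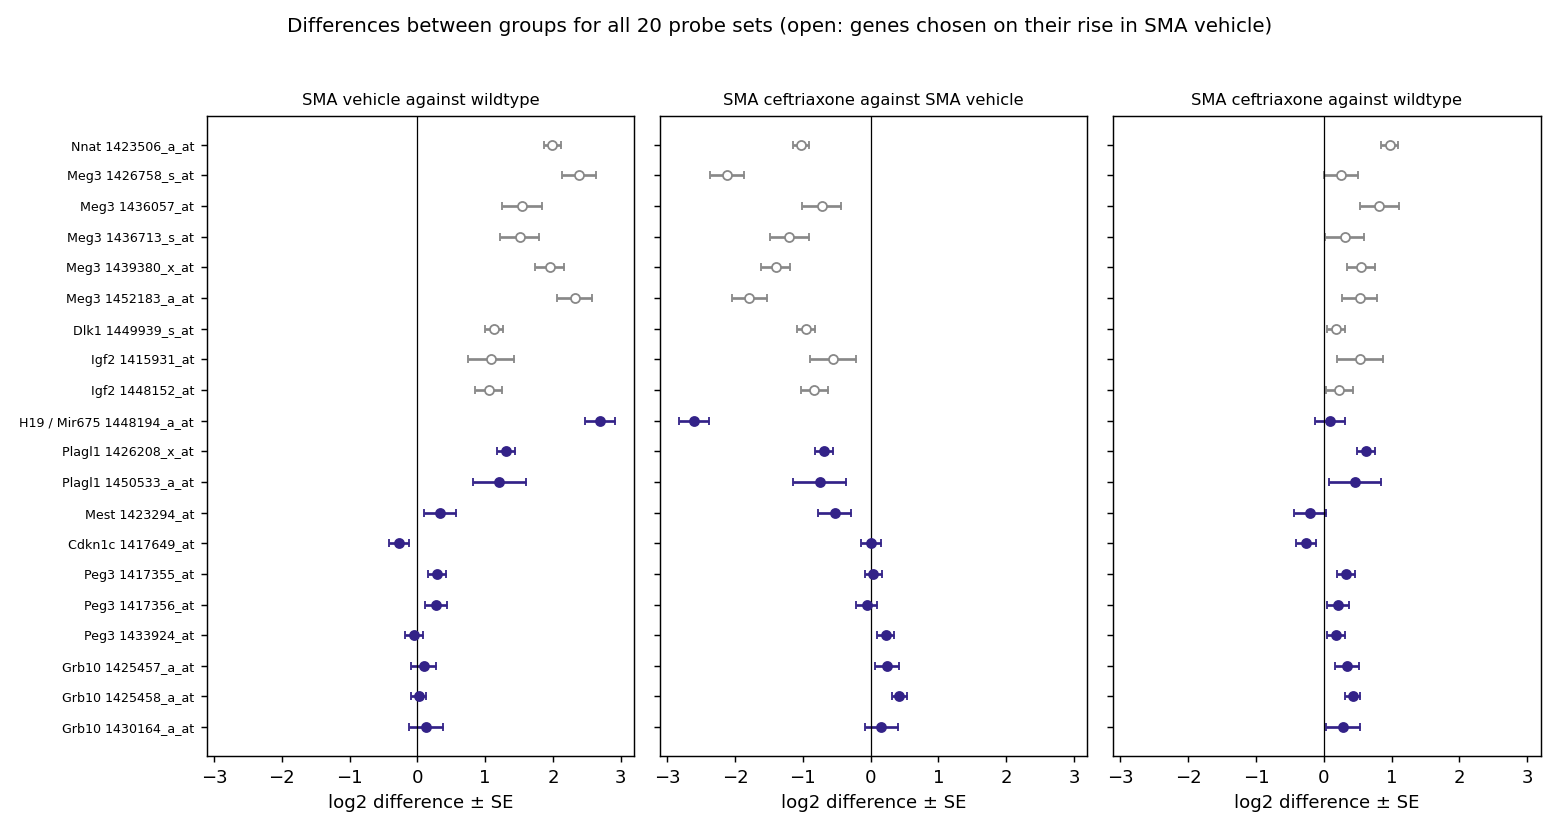
Log2 differences (± SE, from the limma fit to 12 arrays on log2(signal + 16)) of all 20 probe sets in the 3 comparisons. Open grey circles are the 9 probe sets of genes chosen on their higher signal in SMA vehicle cords, and filled circles the 11 tested ones. The H19/Mir675 probe set lies at 2.69 in SMA vehicle against wildtype, at -2.60 in ceftriaxone against vehicle and at 0.09 in ceftriaxone against wildtype.

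Igf2 encodes the insulin-like growth factor of the fetus and signals through the IGF1 and insulin receptors. Signal of Igf2 1448152_at was 974.9, 879.2, 1123.8 and 952.0 in wildtype, 2491.2, 1559.1, 1758.2 and 2574.2 in SMA vehicle, and 777.6, 1156.3, 1558.8 and 1233.3 in SMA ceftriaxone cords. Every SMA vehicle array was above every wildtype array, and the highest ceftriaxone array lay just below the lowest vehicle array. SMA vehicle cords averaged 2.13 times the wildtype mean (log2 difference 1.05 ± 0.20 SE), and ceftriaxone cords 0.564 times the vehicle mean (-0.83 ± 0.20). Ceftriaxone against wildtype gave 0.23 ± 0.20, with overlapping groups. The other Igf2 probe set, 1415931_at, was among the dimmest 13.5% of the array, at 1.7 to 12.5 in wildtype, 16.5 to 39.7 in SMA vehicle and 1.8 to 44.9 in ceftriaxone cords. Its log2 difference of 1.08 in SMA vehicle against wildtype depended on the offset added before the logarithm, and was 2.64 with an offset of 1 and 0.41 with 64.

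H19 is a long noncoding RNA transcribed from the maternal chromosome beside Igf2 on chromosome 7, where both genes share enhancers. The H19/Mir675 probe set had signals of 403.8, 647.4, 369.2 and 338.4 in wildtype cords. In SMA vehicle cords they were 2170.2, 2698.6, 3089.3 and 3610.1, and in SMA ceftriaxone cords 442.0, 439.9, 630.1 and 347.4. The lowest SMA vehicle array was thus above the highest array of either other group, and those overlapped each other. It was the largest difference of the 20 probe sets, at 2892 ± 609.1 against 439.7 ± 141.0 (mean ± SD, n = 4), a ratio of 6.58 and a log2 difference of 2.69 ± 0.22 (limma adjusted p = 3.72e-06). Ceftriaxone cords were at 0.161 times the SMA vehicle mean (-2.60 ± 0.22, adjusted p = 7.31e-05). Between ceftriaxone and wildtype the log2 difference was 0.09, with a 95% interval of -0.38 to 0.57 (adjusted p = 0.886). Without wildtype array 2, which had the highest wildtype signal, the rise in SMA vehicle cords was 2.89 (adjusted p = 8.57e-07).

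Dlk1 encodes a transmembrane protein related to the Notch ligands that keeps precursor cells from differentiating. Its probe set 1449939_s_at read 338.6, 208.8, 293.5 and 268.5 in wildtype, 651.9, 537.7, 611.5 and 677.4 in SMA vehicle, and 304.9, 293.5, 316.8 and 334.9 in ceftriaxone cords. The SMA vehicle group lay apart from both others, which overlapped. The vehicle mean was 2.23 times that of wildtype (log2 difference 1.13 ± 0.13 SE), and the ceftriaxone mean 0.504 times that of vehicle (-0.95 ± 0.13). Ceftriaxone against wildtype gave 0.18 ± 0.13. The spread between the ceftriaxone arrays, an SD of 17.69, was the smallest of the 3 groups.

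Meg3 is a maternally expressed long noncoding RNA of the same domain of chromosome 12, with 2 other genes starting between it and Dlk1. It had 5 probe sets, and in each the 4 SMA vehicle arrays were above the 4 wildtype arrays. Meg3 1439380_x_at read 1344.9, 1307.5, 1297.3 and 1183.3 in wildtype, 3235.4, 4668.8, 6178.7 and 6596.0 in SMA vehicle, and 1348.6, 1891.7, 2268.2 and 2164.1 in ceftriaxone cords. Here the 3 groups did not overlap. Meg3 1452183_a_at read 731.9, 692.1, 677.0 and 547.2 in wildtype, 1929.5, 3146.8, 4357.8 and 4803.9 in SMA vehicle, and 709.6, 816.0, 1198.4 and 1211.8 in ceftriaxone cords. SMA vehicle array 1 had the lowest Meg3 signal of its group in all 5 probe sets. It also had the lowest sums of skeletal muscle markers (3031) and of immature neuron markers (68700).

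The 5 Meg3 probe sets differed in size. The difference of SMA vehicle from wildtype was 2.38 ± 0.25 (SE, log2) for 1426758_s_at, 2.32 ± 0.26 for 1452183_a_at, 1.95 ± 0.21 for 1439380_x_at, 1.54 ± 0.29 for 1436057_at and 1.51 ± 0.29 for 1436713_s_at. Ceftriaxone against vehicle gave -2.12, -1.79, -1.40, -0.72 and -1.20 in the same order. The ceftriaxone arrays were all below the vehicle arrays in the first 3 of these, and overlapped with them in 1436057_at and 1436713_s_at. Signal of Meg3 1426758_s_at in ceftriaxone cords, 422.6 to 565.9, overlapped the wildtype range of 335.3 to 466.8. Within groups, the deviations of the 5 probe sets from their group means correlated at Pearson r of 0.24 to 0.96 over the 12 arrays, lowest for 1426758_s_at with 1436057_at. The letters of the probes were not used here, so which transcript forms each probe set reads was not examined.

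**Figure D3:**
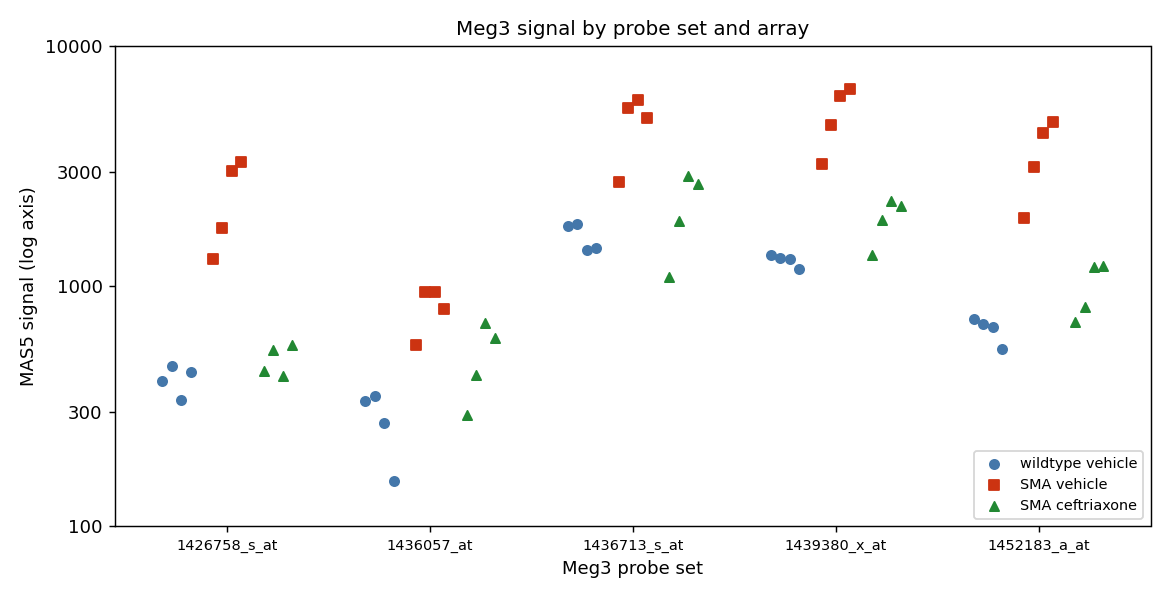
MAS5 signal on a log axis for the 5 probe sets of Meg3, with 1 point per array and the 3 groups side by side. SMA vehicle arrays lie above wildtype arrays in all 5 probe sets, and ceftriaxone arrays lie below SMA vehicle arrays in 1426758_s_at, 1439380_x_at and 1452183_a_at.

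Nnat encodes neuronatin, a small membrane proteolipid of the endoplasmic reticulum that affects calcium handling and is abundant in developing brain. Its probe set 1423506_a_at read 3931.1, 2773.4, 3174.6 and 3049.4 in wildtype, 11506.9, 12518.1, 13518.4 and 13807.1 in SMA vehicle, and 6023.5, 5640.4, 7635.2 and 6005.6 in ceftriaxone cords. The groups were separate, with ceftriaxone between the others. SMA vehicle averaged 3.97 times wildtype (log2 difference 1.99 ± 0.12 SE), ceftriaxone 0.493 times vehicle (-1.03 ± 0.12) and ceftriaxone 1.96 times wildtype (0.97 ± 0.12). Nnat lies within an intron of Blcap, and 0 other genes start between them.

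Plagl1, the zinc finger factor, was the tested single-symbol gene that rose most in SMA vehicle cords. Plagl1 1426208_x_at read 1560.3, 1032.8, 1624.7 and 1359.3 in wildtype, 3384.6, 3468.5, 3154.0 and 3766.5 in SMA vehicle, and 2164.4, 1948.8, 2424.5 and 1975.9 in ceftriaxone cords. The 3 groups were separate, in the same order as for Nnat. It rose 2.47 times in SMA vehicle against wildtype (log2 difference 1.31 ± 0.13 SE, adjusted p = 1.22e-05) and fell with ceftriaxone to 0.618 times the vehicle mean (-0.69 ± 0.13, adjusted p = 0.00202). In ceftriaxone against wildtype the ratio was 1.53 (0.62 ± 0.13, adjusted p = 0.0294). That call was lost, at adjusted p = 0.0501 to 0.101, when wildtype array 4, SMA vehicle array 2 or any of the ceftriaxone arrays was left out, and it was kept without wildtype array 2 (0.48, adjusted p = 0.0116). It was also lost with Xist signal (0.49, adjusted p = 0.212) or the Gapdh ratio (adjusted p = 0.0615) as a covariate, under median centring (adjusted p = 0.0894), without the intensity trend (adjusted p = 0.0554) and in a fit of only the 2 groups (adjusted p = 0.122).

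The second Plagl1 probe set, 1450533_a_at, was dim, among the lowest 25.9% of the array. It read 38.1, 7.1, 28.9 and 24.3 in wildtype, 85.4, 96.1, 55.7 and 62.9 in SMA vehicle and 26.5, 9.4, 90.8 and 53.9 in ceftriaxone cords. It passed as higher in SMA vehicle (1.21 ± 0.39 SE, adjusted p = 0.0334), without overlap between these groups. That call ended when wildtype array 2, 3 or 4 or SMA vehicle array 1, 2 or 4 was left out, at adjusted p = 0.0505 to 0.0858, and the difference without wildtype array 2 was 0.96 (adjusted p = 0.0697). It also ended with array weights (1.0, adjusted p = 0.0518) and with Xist as a covariate (1.18, adjusted p = 0.0508). Ceftriaxone differed from vehicle by -0.75 ± 0.39 (adjusted p = 0.207).

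Mest encodes a membrane protein with a hydrolase fold and is paternally expressed on chromosome 6. Its probe set 1423294_at read 377.4, 379.9, 351.9 and 431.3 in wildtype, 621.6, 342.7, 389.2 and 674.6 in SMA vehicle, and 299.7, 260.4, 547.7 and 282.4 in ceftriaxone cords. SMA vehicle arrays 1 and 4 were high and arrays 2 and 3 within or near the wildtype range. The difference of SMA vehicle from wildtype was 0.33, with a 95% interval of -0.20 to 0.86 (adjusted p = 0.345). Ceftriaxone against vehicle gave -0.53 ± 0.24 (adjusted p = 0.145), and -0.76 (adjusted p = 0.0239) without ceftriaxone array 3, the array that stood high.

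Peg3, a paternally expressed zinc finger gene of chromosome 7, had 3 probe sets of high signal. Peg3 1433924_at read 6073.6, 3939.4, 6337.2 and 6443.4 in wildtype, 5356.7, 5282.6, 5278.7 and 5772.5 in SMA vehicle, and 6934.3, 5826.3, 6186.0 and 6402.3 in ceftriaxone cords. Wildtype array 2 was far below the other 3, which were all above the SMA vehicle arrays. The difference of SMA vehicle from wildtype was therefore -0.05 with all arrays (95% interval -0.33 to 0.24, adjusted p = 0.839) and passed as lower at -0.21 without that array (adjusted p = 0.0151) and at -0.19 with array weights (adjusted p = 0.0476). Ceftriaxone against vehicle was 0.22 ± 0.13 (adjusted p = 0.269), and passed without wildtype array 2 (adjusted p = 0.0099), in a fit of only these 2 groups (adjusted p = 0.0173) and with array weights (adjusted p = 0.0321). Peg3 1417355_at and 1417356_at differed by 0.29 ± 0.13 (adjusted p = 0.106) and 0.27 ± 0.16 (adjusted p = 0.23) in SMA vehicle against wildtype, so the 3 probe sets did not share a sign.

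Cdkn1c encodes p57, an inhibitor of cyclin-dependent kinases that takes dividing cells out of the cycle, and lies on chromosome 7 with 16 genes starting between it and Igf2. Its probe set 1417649_at read 1200.7, 966.6, 1602.8 and 1529.8 in wildtype, 1082.9, 892.1, 1061.8 and 1296.6 in SMA vehicle, and 1118.0, 993.7, 1104.6 and 1129.3 in ceftriaxone cords. All groups overlapped. SMA vehicle against wildtype was -0.27 (95% interval -0.59 to 0.05, adjusted p = 0.199), and passed as lower at -0.41 without wildtype array 2 (adjusted p = 0.0165) and at -0.42 with array weights (adjusted p = 0.0136). Ceftriaxone against vehicle was 0.01 (95% interval -0.31 to 0.34, adjusted p = 0.963).

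Grb10 encodes an adaptor that binds the insulin and IGF1 receptors and restrains their signalling. Grb10 1425458_a_at read 1609.8, 1132.3, 1591.3 and 1481.5 in wildtype, 1575.4, 1355.5, 1353.4 and 1562.6 in SMA vehicle, and 2075.3, 1834.2, 1953.8 and 1945.7 in ceftriaxone cords. The ceftriaxone arrays were above all others, and the vehicle groups overlapped. SMA vehicle against wildtype was 0.02 (95% interval -0.21 to 0.25, adjusted p = 0.923). With ceftriaxone Grb10 rose 1.34 times over SMA vehicle (0.42 ± 0.11 SE, adjusted p = 0.0129), and the difference from wildtype, 0.43 ± 0.11, did not pass (adjusted p = 0.0564). The difference from wildtype did pass without wildtype array 1 (0.49, adjusted p = 0.0464) or array 2 (0.32, adjusted p = 0.0248), with filters on dim probe sets at the 40th or 60th percentile (adjusted p = 0.0397 and 0.0339), with array weights (0.33, adjusted p = 0.0287) and with the replicate block (adjusted p = 0.0485).

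The Grb10 call against SMA vehicle moved with Xist and with scaling. It ended with Xist signal as a covariate (0.32, adjusted p = 0.0706) and under median centring (0.38, adjusted p = 0.0668). Xist signal was 1688.5 to 2216 on the ceftriaxone arrays, and among the SMA vehicle arrays it was high on arrays 1 and 4, which also had the highest Grb10 signals of their group. Among the wildtype arrays it was high on array 3 (2081.4), where Grb10 1425458_a_at read 1591.3. Wildtype array 1, with Xist at 49.4, read higher, at 1609.8. The part of Xist in the Grb10 result was not tested beyond that covariate. The other probe sets, 1425457_a_at and 1430164_a_at, differed by 0.24 (adjusted p = 0.368) and 0.16 (adjusted p = 0.721) in the same comparison.

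Members varied together within groups to different degrees. Deviations of the 10 genes from their group means, with the brightest probe set of each, gave 45 pairs, of which 9 had a Pearson r over 0.7 on 12 arrays. Without wildtype array 2 this held for 2 pairs, H19/Mir675 with Nnat (0.80) and Igf2 with Mest (0.74). Igf2 and Mest were both high on SMA vehicle arrays 1 and 4 and on ceftriaxone array 3. Dlk1 with Grb10 gave 0.88 with that wildtype array and 0.69 without it, and Peg3 with Grb10 0.89 and 0.57. These values are a description: the points share arrays and scaling.

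The genes whose signal was most like each member across the 12 arrays were taken from 12573 brighter probe sets of 1 symbol, by Pearson r of log2 signal. Nnat was closest to Dpysl4 (0.993), Tpbg (0.991) and Ncam1 (0.991), the last a neural cell adhesion molecule. Plagl1 was closest to Fxyd6 (0.995), Tpbg (0.988) and Krt1 (0.988), and Dlk1 to Dpysl3 (0.989), Camsap1 (0.988) and Mapt (0.984), the gene of the microtubule protein tau. The H19/Mir675 probe set was closest to Tbca (0.988), Klf7 (0.986) and Amz2 (0.985), Igf2 to Mad2l2 (0.966), Csrp2 (0.961) and Arnt2 (0.950), and Meg3 to Dync1li1 (0.960), Cnot7 (0.952) and Eny2 (0.940). All of these genes had their highest group mean in SMA vehicle cords, as the 6 members had, so the values of r reflect the differences between groups. Grb10 was closest to Itsn1 (0.957), Slc4a4 (0.927) and Cables1 (0.921), and Peg3 to Dpm1 (0.964), Norad (0.952) and Dnm1 (0.944). The closest genes to Mest, Polr1e at 0.862, and to Cdkn1c, Tnfrsf21 at 0.861, were the least like of the 10.

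Other imprinted genes did not move one way. Of 62 listed, 46 were measured, and in SMA vehicle against wildtype 9 were higher, 8 lower and 29 did not pass, with a median log2 difference of -0.04 against -0.03 over all genes. Over all probe sets 16.5% were called higher and 14.8% lower, so these shares lie near the background and say nothing particular to imprinted genes. The neighbours of members that passed are given by domain as single values. Others did not pass, among them Zim1 of the Peg3 domain (0.98, adjusted p = 0.055). In the Igf2 and Cdkn1c domains these included Ins2 (0.15), Phlda2 (0.15), Cd81 (-0.26), Tssc4 (-0.05), Nap1l4 (0.01) and Osbpl5 (0.44, adjusted p = 0.0551). Rian, a maternal noncoding RNA beyond Meg3, rose (mean signal 1615 in wildtype, 3551 in SMA vehicle, 1779 in ceftriaxone; 1.13 ± 0.14 SE, adjusted p = 5.64e-05). Blcap, the host of Nnat, rose (1389, 2439 and 1764; 0.82 ± 0.10, adjusted p = 4.91e-05). Usp29, which starts beside Peg3, rose as well (516.1, 955.2 and 639.1; 0.88 ± 0.12, adjusted p = 0.000157), while the Peg3 probe sets did not pass.

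In other domains the neighbour fell or differed. Copg2, next to Mest, fell (-0.50 ± 0.10, adjusted p = 0.00166). Ddc, the decarboxylase of dopamine and serotonin synthesis near Grb10, fell (mean signal 1048 in wildtype, 430.4 in SMA vehicle; -1.27 ± 0.20, adjusted p = 0.000351), and so did Th, tyrosine hydroxylase (-0.67 ± 0.22, adjusted p = 0.0319). Gatm, an enzyme of creatine synthesis, fell most of the 46 (2241 to 769; -1.53 ± 0.17, adjusted p = 2.74e-05), and Rasgrf1 fell too (-0.97 ± 0.18, adjusted p = 0.00108), as did Impact (-0.70 ± 0.12, adjusted p = 0.000521). Of the Prader-Willi domain, Mkrn3 rose most (mean signal 325.1 to 1217, log2 difference 1.87 ± 0.17, adjusted p = 9.21e-06). Magel2 (0.70 ± 0.16, adjusted p = 0.00482) and Ndn (0.36 ± 0.12, adjusted p = 0.0383) rose too. Snrpn (0.07, adjusted p = 0.841), Peg12 (-0.10, adjusted p = 0.743), Ube3a (-0.18, adjusted p = 0.257) and Atp10a (-0.64, adjusted p = 0.381) did not pass. Slc38a4 (1.07 ± 0.18, adjusted p = 0.000505), Asb4 (1.0 ± 0.21, adjusted p = 0.00307) and Wt1 (0.95 ± 0.22, adjusted p = 0.00482) also rose. Slc38a4 and Wt1 were dim, with mean signals of 8.175 and 8.925 in wildtype and 35.35 and 32.77 in SMA vehicle cords. The size of a log2 difference at such signals depends on the offset.

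**Figure D4:**
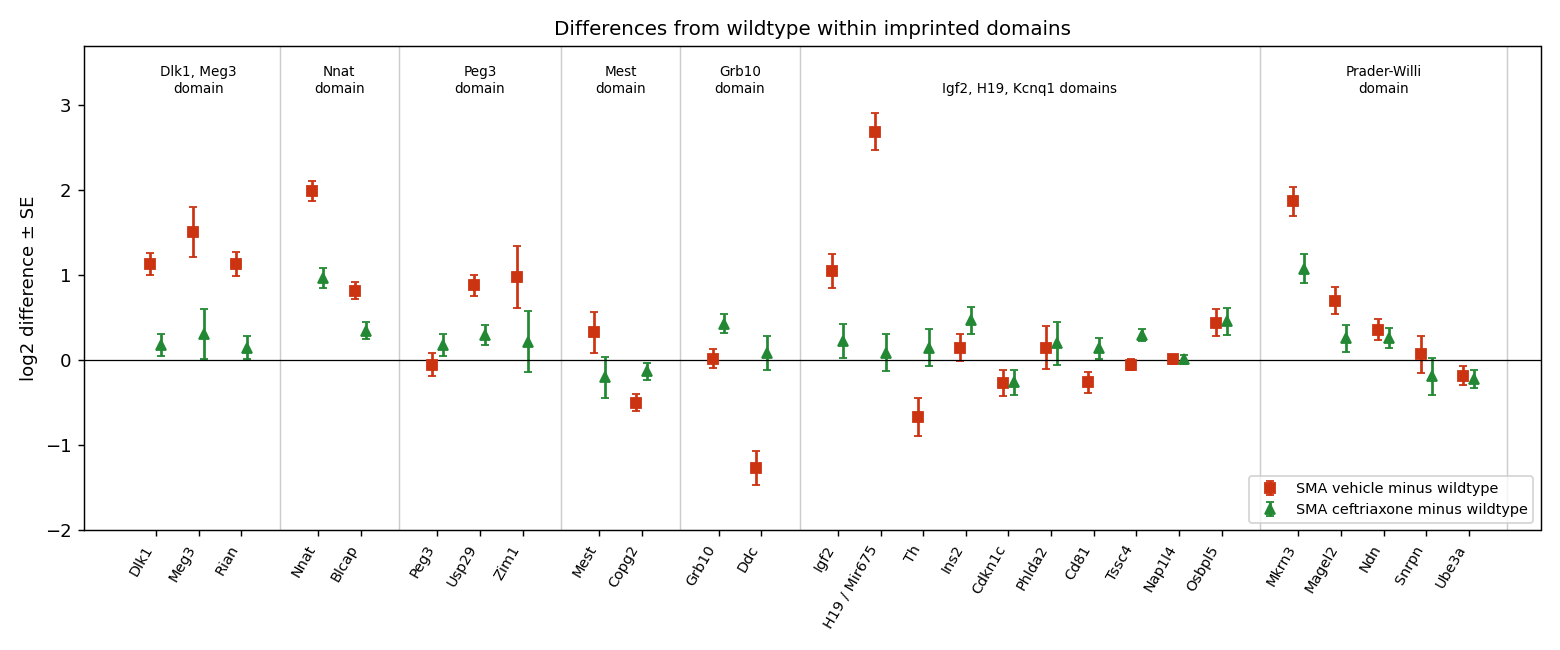
Log2 differences (± SE) from wildtype of SMA vehicle cords (squares) and SMA ceftriaxone cords (triangles), for members and listed imprinted genes grouped by domain, with the brightest probe set per gene. Both groups of arrays share the wildtype arrays. Dlk1, Meg3 and Rian lie at 1.13, 1.51 and 1.13 in SMA vehicle cords, Ddc at -1.27, and Grb10 at 0.02.

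With ceftriaxone, 10 of these 46 genes were higher than in SMA vehicle cords, 5 were lower and 31 did not pass, with a median of 0.05. Over all probe sets 11.5% were called higher and 10.8% lower, and the median over all genes was 0.03. Ddc (1.36, adjusted p = 0.000501), Gatm (1.12, adjusted p = 0.000591), Rasgrf1 (0.94, adjusted p = 0.00241), Impact (0.91, adjusted p = 0.000222) and Th (0.82, adjusted p = 0.0157) rose. Rian (-0.98, adjusted p = 0.000412), Mkrn3 (-0.80, adjusted p = 0.00577), Wt1 (-0.80, adjusted p = 0.0193), Usp29 (-0.58, adjusted p = 0.00502) and Blcap (-0.47, adjusted p = 0.0046) fell. Against wildtype, Mkrn3 was the 1 gene called, as higher in ceftriaxone cords (1.08 ± 0.17, adjusted p = 0.0109), beside 1.55% of all probe sets called higher. That count was 0 in a fit of only the 2 groups and with Xist as a covariate, and 5 without wildtype array 2.

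Other genes of the insulin-like growth factor axis were measured by 12 probe sets, 1 per gene. They were Igf1, a separate ligand, and genes of IGF and insulin receptors, binding proteins and substrates. In SMA vehicle cords 5 were higher than in wildtype, 1 was lower and 6 did not pass, with a median of 0.15. Over all probe sets 16.5% were called higher and 14.8% lower. Of the called genes only Igf1 and Igfbp5 are named here, both among the higher ones. Igf1, the growth factor that takes over after birth, rose from a mean signal of 319.7 to 946.9 (1.54 ± 0.16 SE, adjusted p = 1.71e-05) and was 428.8 with ceftriaxone. Igfbp5, a binding protein, rose from 1083 to 3733 (1.72 ± 0.21, adjusted p = 6.28e-05) and was 1776 with ceftriaxone. In ceftriaxone against vehicle 4 of the 12 were lower and 1 was higher, with 10.8% of all probe sets called lower and 11.5% higher. Among 11 measured growth regulators known to decline after birth, Hmga2 (1.46 ± 0.20, adjusted p = 0.000114) and Gpc3 (1.17 ± 0.24, adjusted p = 0.00225) rose in SMA vehicle cords and 9 did not pass, so the list as a whole had a median of 0.07. With 16.5% of all probe sets called higher, this count lies near the background and says nothing particular to the list. It was made with all arrays. The summed signal of the list was 3112 to 6472 in wildtype and 3404 to 3997 in SMA vehicle cords. The highest wildtype sum was that of array 2, and without it the highest was 3238. The calls of this list without that array were not counted. Hmga2, a chromatin protein of growing cells, fell with ceftriaxone (-0.97, adjusted p = 0.00359). It was the 1 of 11 to pass there, beside 10.8% of all probe sets called lower.

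Markers of several cell types moved with the members. Over all probe sets, 16.5% were called higher and 14.8% lower in SMA vehicle against wildtype, and 11.5% higher and 10.8% lower with ceftriaxone. Of 10 markers of immature neurons, among them Dcx and Gap43, 9 were higher in SMA vehicle cords and 9 lower with ceftriaxone; their summed signal was 32720 to 36190 in wildtype, 68700 to 83070 in SMA vehicle and 36750 to 46720 in ceftriaxone cords. Of 7 markers of mature oligodendrocytes, all 7 were lower in SMA vehicle cords and all 7 higher with ceftriaxone, and the sums were 72080 to 116300, 23280 to 46570 and 83940 to 93900. Skeletal muscle, where H19, Igf2, Dlk1 and Meg3 are known to be strongly expressed in young animals, also showed in its markers: 10 of 14 were higher in SMA vehicle cords and 11 lower with ceftriaxone, with sums of 877.1 to 2141, 3031 to 7105 and 435 to 1020. The actin gene Acta1 had mean signals of 375.1, 2328 and 211.6 in these groups. The part of these cell types in the results was not tested.

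The muscle sum was set beside the members array by array. In SMA vehicle arrays 1 to 4 it was 3031, 4172, 7105 and 6834, beside H19/Mir675 signals of 2170.2, 2698.6, 3089.3 and 3610.1 and Meg3 1426758_s_at signals of 1296.5, 1751.6, 3021.4 and 3293.2. Array 1 was thus the lowest, and arrays 3 and 4 the highest, of this group in all of these. Igf2 1448152_at on the same arrays read 2491.2, 1559.1, 1758.2 and 2574.2, and Dlk1 651.9, 537.7, 611.5 and 677.4. Both were highest on array 4 and lowest on array 2, while the muscle sum was highest on array 3 and lowest on array 1. With 4 arrays in a group, such orders are a description, and the part of muscle was not tested. Meg3 1436057_at was lower on array 4 (805.2) than on array 2 (944.1), as was Meg3 1436713_s_at (5022.0 and 5537.4). In wildtype arrays 1 to 4 the muscle sum was 2141, 877.1, 902.8 and 922.6, beside H19/Mir675 signals of 403.8, 647.4, 369.2 and 338.4 and Meg3 1426758_s_at signals of 402.7, 466.8, 335.3 and 437.2. The wildtype array with the highest muscle sum was not the highest in either. In ceftriaxone arrays 1 to 4 the muscle sum was 1020, 542.7, 435 and 504.6, beside H19/Mir675 signals of 442.0, 439.9, 630.1 and 347.4. Meg3 1426758_s_at signals there were 444.8, 540.1, 422.6 and 565.9. Ceftriaxone array 1, with the highest muscle sum, was not the highest in either. H19/Mir675 was highest on array 3, which had the lowest muscle sum. The immature neuron sum separated the SMA vehicle arrays from both other groups in the same way. On SMA vehicle arrays 1 to 4 it was 68700, 74830, 80810 and 83070, in the same order as their H19/Mir675 signals. On wildtype arrays 1 to 4 the immature neuron sum was 36190, 33110, 35630 and 32720. On ceftriaxone arrays 1 to 4 it was 46720, 36750, 45080 and 38220. Array 1 had the highest sum in each of these groups and was not the highest in H19/Mir675 in either. Meninges and fibroblasts, a known site of Igf2 expression, had 2 of 13 markers higher, 3 lower and 8 not passing, with sums of 7510 to 9850, 9021 to 12100 and 8216 to 10080. Choroid plexus and ependyma, another known site of Igf2, had 2 of 5 measured markers higher, with sums of 311.5 to 433.5, 497.5 to 872.8 and 386.7 to 505.2. Cartilage and bone had 1 of 8 higher and 2 lower, with sums of 443.9 to 595.4, 391.2 to 509.1 and 520.7 to 582.7. These marker counts, for SMA vehicle against wildtype, stand beside 16.5% of all probe sets called higher and 14.8% lower.

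**Figure D5:**
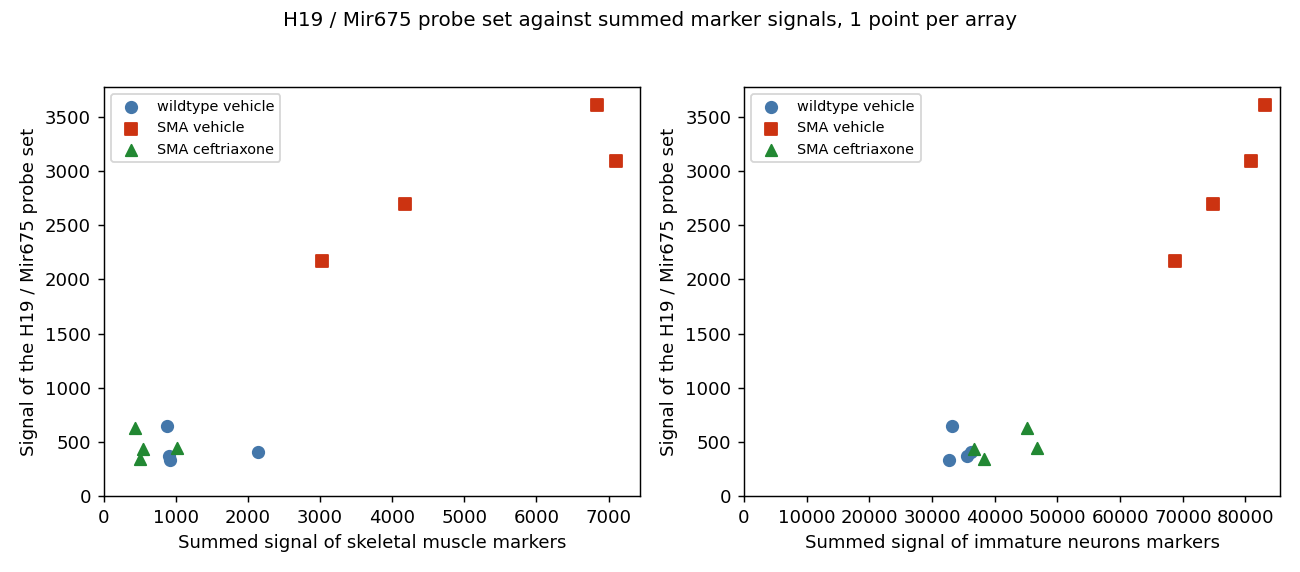
Signal of the H19/Mir675 probe set against the summed signal of 14 skeletal muscle markers (left) and of 10 immature neuron markers (right), all on linear axes with 1 point per array. The 4 SMA vehicle arrays, at muscle sums of 3031 to 7105, lie to the upper right in both, and the wildtype arrays, at muscle sums of 877.1 to 2141, have H19/Mir675 signals of 338.4 to 647.4.

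Of the remaining lists, mature neuron markers were 4 higher, 4 lower and 2 not passing of 10 in SMA vehicle cords, with sums of 51150 to 71820 in wildtype, 50980 to 56970 in SMA vehicle and 54570 to 61830 in ceftriaxone cords. Astrocyte markers were 3 higher, 4 lower and 3 not passing of 10 in SMA vehicle cords, and 6 higher and 0 lower with ceftriaxone, with sums of 40700 to 63410, 37990 to 43240 and 58080 to 64090. Endothelial markers were 0 higher, 5 lower and 4 not passing of 9 in SMA vehicle cords, and 5 higher and 0 lower with ceftriaxone. Their sums of 3084 to 4300 in SMA vehicle cords were below all wildtype arrays, at 4353 to 6024, and all ceftriaxone arrays, at 4351 to 5560. The part of these cell types in the results was not tested either. Of 9 thymus and T cell and 5 erythroid markers, 0 passed in SMA vehicle against wildtype. Over all probe sets 16.5% were called higher and 14.8% lower in that comparison, and 11.5% higher and 10.8% lower with ceftriaxone.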

How the data were processed

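Spinal cord RNA of 12 mice was hybridised to 12 Affymetrix expression arrays as biotin-labelled cRNA from a single amplification. The authors deposited 1 intensity per probe set and array, not on a log scale, which the submitters' processing notes credit to MAS5 without a version. Arrays had been scaled to a common target before deposit, since their means without the top and bottom 2% were 700.2 to 700.3. Detection calls were not used here. Of 22690 probe sets, 20393 had 1 gene symbol, 691 several and 1606 none in the platform annotation.

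After 64 control probe sets were left out, log2(signal + 16) of the other 22626 was fitted with a mean per group by lmFit and eBayes of limma 3.58.1 (R 4.3.3), with a trend and 9 residual degrees of freedom. Tests were two-sided, p-values were adjusted by Benjamini and Hochberg's method over all 22626, and the threshold was 0.05. The offset understates the change of dim genes. The median SE of a log2 difference was 0.157, and the number of arrays limits the precision. The method was checked on simulated data. Signals are not compared between probe sets. Lists use the brightest probe set per gene.

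Members, lists and tests were chosen with earlier results of these data known. All members were named, and of the other imprinted genes and growth regulators the 5 called genes of largest difference in each direction and comparison whose groups did not overlap. Copg2, Magel2, Ndn, the other imprinted genes that did not pass, the genes of the IGF list and the markers are named outside that rule, after their values were seen. Likeness took the 3 genes of highest r. The fit was repeated without each array, with the replicate number as block, with the Gapdh 3 prime to 5 prime ratio or Xist as a covariate, on the 2 groups compared, with array weights, without the trend, with filters at the 40th and 60th percentile, with median centring or quantile normalization, with offsets of 1 and 64, and with probe sets averaged per gene. The correlations of deviations without wildtype array 2 were added after the data were seen.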

Additional observations from a re-analysis of the deposited data

Results flagged for a closer look

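In 60 groups of 4 arrays, 1 for each of the 20 probe sets and 3 groups, 5 held an array far from the other 3; chance gives about 1 in 20. Peg3 1433924_at read 3939.4 on wildtype array 2, against 6073.6 to 6443.4 on the others, and this is the array with the thymus markers. In SMA vehicle cords the same probe set read 5772.5 on array 4, against 5278.7 to 5356.7. Mest read 547.7 on SMA ceftriaxone array 3, against 260.4 to 299.7. Grb10 1425457_a_at read 209.2 on SMA vehicle array 4, against 180.7 to 185.3. The dim Igf2 1415931_at read 12.5 on wildtype array 4, against 1.7 to 2.4.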

How the results depend on the processing

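The rise of the H19/Mir675 probe set and of Plagl1 1426208_x_at in SMA vehicle cords, and their fall with ceftriaxone, kept direction and call under all alternatives run. Over the tested probe sets, 722 values kept direction and side of the threshold, 21 lost a call, 14 gained one and 20 changed sign. Over the untested ones, 635 moved by less than the spread between arrays with the sign kept, 3 moved further and 1 changed sign. Those that changed sign were near 0 and none was called in the original direction; the cause was not tested. For Peg3 1433924_at in SMA vehicle against wildtype median centring gave 0.0, and leaving out arrays -0.21 to 0.02. Grb10 1425458_a_at there gave -0.0 under quantile normalization, -0.09 with array weights, -0.02 with Xist as a covariate and -0.10 to 0.07 without single arrays. In ceftriaxone against vehicle Cdkn1c gave -0.03 under median centring, -0.15 with Xist and -0.07 to 0.10 without single arrays, Peg3 1417355_at -0.03 to 0.12 and Peg3 1417356_at -0.13 to 0.02. In ceftriaxone against wildtype Igf2 1448152_at gave -0.09 with Xist, Mest 0.09 with the Gapdh ratio, and the H19/Mir675 probe set -0.06 to 0.29 without single arrays.

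Called probe sets in SMA vehicle against wildtype were 7082, and 4490 with the filter at the 60th percentile, where fewer were tested. In ceftriaxone against vehicle they were 5059, and 7608 with array weights. In ceftriaxone against wildtype 456 were called, but 181 under median centring, 283 without the trend, 1147 with array weights, 44 in the fit of the 2 groups, 142 with the Gapdh ratio, 48 with Xist, and 116 (without ceftriaxone array 3) to 1151 (without wildtype array 2). Called member probe sets there were 1, but 0 under median centring, without the trend, in the fit of the 2 groups, with the Gapdh ratio and with Xist, 2 with either filter and array weights, and 0 to 2 without single arrays. Called other imprinted genes there were 1, but 2 with the filter at the 60th percentile and with the mean of all probe sets, 4 with array weights, 0 in the fit of the 2 groups and with Xist, and 1 to 5 without single arrays. Leaving out wildtype array 2 kept 6738, 5059 and 452 of the calls in the 3 comparisons.

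The replicate numbers are shared by the groups but did not pair the arrays: deviations of same-numbered arrays correlated at -0.069 to 0.043. With the replicate block, ceftriaxone against wildtype had 233 called probe sets and 2 called member probe sets, Grb10 1425458_a_at joining at 0.43 (adjusted p = 0.0485).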
